A study of Homo sapiens with 10 samples.

Results

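The knockout group of the RNA-Seq experiment consists of 4 libraries of MV4-11 cells in which IRF8 was targeted with CRISPR/Cas9. Here the libraries of IRF8 KO replicates 1 and 2 were set against those of replicates 3 and 4, to describe how far the knockout libraries differed among themselves. These libraries are 4 of the 10 samples of the series. The other samples are 4 control libraries, used as the reference level, and IRF8 ChIP-Seq samples, which were not used here. Genes were compared if their normalized count averaged at least 10 over the 4 knockout libraries, which held for 12981 of the 19590 genes of the table. The measure is the mean log2(normalized count + 1) of replicates 1 and 2 minus that of replicates 3 and 4. A gene was counted as split if this difference was at least 1, which is 2-fold, and the values of the pairs did not overlap. The division was chosen by the measured counts of these same libraries, with results of the data known, so the difference between the pairs is a description and no test was run on it.

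MV4-11 is an established line of monocytic acute myeloid leukemia (AML) with an internal tandem duplication in the receptor kinase gene FLT3. Control cells received the control vector, and knockout cells were grown, according to the methods of the study, as clones from limiting dilution of cells infected with a lentivirus carrying Cas9 and a guide against IRF8. More than 1 guide was used, and the labels do not say which clone or guide belongs to which library. A difference between the pairs therefore cannot be told apart from a difference between clones, guides, cultures or library preparations. Reads assigned to genes numbered 39560072 to 54048461 in the knockout libraries, with the lowest number in replicate 3 and a median of 51308898, and 48762519 to 65519047 in the control libraries. Nothing in the labels says that the 4 replicates of a group came from separate cultures, so the p-values given below measure the spread between these libraries. The myeloid markers CD33, FLT3, CSF1R and SPI1 were expressed in all knockout libraries, at 2101 normalized counts or more. The T cell marker CD3E, the B cell marker MS4A1 and the globin gene HBB were at 0 in each of them.

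IRF8 is a transcription factor of the interferon regulatory factor family that directs the development of monocytes and dendritic cells and is expressed in blood cells of the myeloid and B lineages. SPARC is a secreted, collagen-binding glycoprotein that modulates how cells attach to the extracellular matrix. BCL2 is the founding member of a family of mitochondrial proteins and protects cells from apoptosis. SPARC and BCL2 were given as markers of the division, and IRF8 is the targeted gene.

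The targeted gene was checked in every library. The IRF8 normalized count was 6377, 2401, 12903 and 7820 in KO replicates 1 to 4, and between 15192 and 43016 in the controls. All knockout libraries lay below the lowest control, and replicates 1 and 2 lay below replicates 3 and 4. The mean of replicates 1 and 2 was 14.9% of the control mean and that of replicates 3 and 4 was 35.2%, a difference of -1.36 on the log2 scale. It was -0.66 without replicate 2, and -0.96 when each knockout library was set against the control of the same number. The count is of RNA over the whole gene, so it does not measure the protein. Over the 4 knockout and 4 control libraries IRF8 was lower in the knockout, by a log2 fold change of -2.11 ± 0.51 (SE; adjusted p = 0.022, limma). The limma adjusted p was 0.0586 without Control replicate 1, 0.0576 without Control replicate 3 and 0.0529 without KO replicate 1.

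SPARC stood apart between the pairs and BCL2 did not. The SPARC normalized count was 2272 and 2706 in KO replicates 1 and 2, and 12010 and 11579 in replicates 3 and 4. The values within each pair were close, and the pairs differed by -2.25 on the log2 scale. All 4 were far above the controls, which lay between 25.9 and 73.0, and the knockout was higher than the control by a log2 fold change of 6.90 ± 0.62 (SE; adjusted p = 0.00024, limma). The direction against the control was thus common to the knockout libraries and its size was not. In RNA of whole cultures, a smaller share of expressing cells and less RNA per cell cannot be told apart. The BCL2 normalized count was 3268 and 13067 in KO replicates 1 and 2, and 2849 and 4865 in replicates 3 and 4. Replicate 2 was the only library that reached the control range of 12129 to 21165, and replicate 1 lay between replicates 3 and 4, so that BCL2 did not meet the rule for split genes. Its difference between the pairs was 0.81 on the log2 scale, and -0.19 without replicate 2. Against the control, BCL2 was lower by a log2 fold change of -1.69 ± 0.45 (SE; adjusted p = 0.032, limma). In limma this call was lost without Control replicate 2 or 4 (adjusted p of 0.0732 and 0.079) and without KO replicate 1, 3 or 4 (0.0877, 0.0834 and 0.0771), with log2 fold changes between -1.68 and -1.42. It was also lost with edgeR (adjusted p = 0.075), whereas limma with the replicate number as a block gave an adjusted p of 0.00258.

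**Figure D1:**
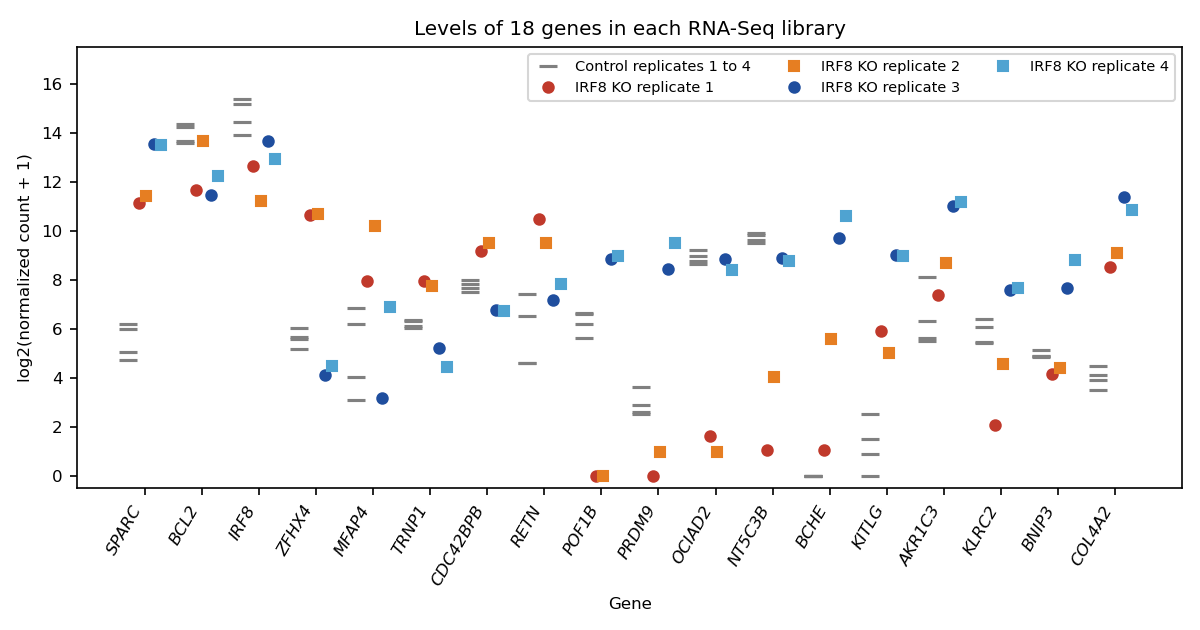
Levels of 18 genes on the log2(normalized count + 1) scale (y axis), with grey bars for the 4 control libraries and points for the 4 knockout libraries of each gene (x axis). The red and orange points are KO replicates 1 and 2 and the blue points are replicates 3 and 4. For SPARC all knockout points lie above the controls, for POF1B the red and orange points are at 0, and for BCL2 the orange point lies apart from the other knockout points.

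Of the 12981 genes compared, 532 (4.1%) were split between the pairs. Replicates 1 and 2 were higher for 163 of them (1.26%), and replicates 3 and 4 for 369 (2.84%). The genes that were higher in replicates 3 and 4 were also further apart. A difference of at least 2 on the log2 scale was reached by 25 genes in the direction of replicates 1 and 2 and by 121 in the other, and a difference of at least 4 by 4 and 24 genes. The median difference of the split genes was 1.31 and -1.57, and that of all genes compared was -0.01. The genes higher in replicates 3 and 4 were weakly expressed for the most part, with a median mean count of 52.3, against 142 for those higher in replicates 1 and 2 and 1458 for all genes compared. Among genes with a mean of at least 100 the counts were 90 and 121. Quantile normalization of the libraries gave 266 and 294, so that the share of split genes higher in replicates 1 and 2 was 47.5% there and 30.6% here. The rule excludes any gene in which 1 library overlaps the other pair, and the counts were larger whenever a library was left out: 550 and 590 without KO replicate 1, 311 and 815 without replicate 2, 218 and 614 without replicate 3, and 484 and 507 without replicate 4. Just inside the limit were EPB41L3 (a log2 difference of 1.0011) and PCDHGA6 (-1.0008), and just outside it were CD37 (0.998) and PPP3R2 (-0.9996).

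The pairs were not the libraries with the most similar profiles. Over all genes compared, the median absolute log2 difference was 0.302 between KO replicates 1 and 2 and 0.343 between replicates 3 and 4. It was 0.211 between replicates 2 and 4, which were the closest, and 0.421 between replicates 2 and 3, which were the furthest apart. In the controls, replicates 1 and 3 differed by 0.074 and replicates 2 and 4 by 0.152, whereas the other pairs of controls differed by 0.394 to 0.459. Since each knockout pair holds 1 library with an odd and 1 with an even number, the differences of replicate 1 from 3 and of replicate 2 from 4 were also taken. Both were at least 2-fold in the direction of the pair for 80 of the 163 genes and for 221 of the 369. The controls of the same numbers, 1 and 2 against 3 and 4, differed at least 2-fold in the same direction for 15 of the 532 split genes. Over all genes compared, the difference between the knockout pairs and that between the control pairs correlated at 0.059 (Pearson's r, 12981 genes, which are not independent replicates).

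**Figure D2:**
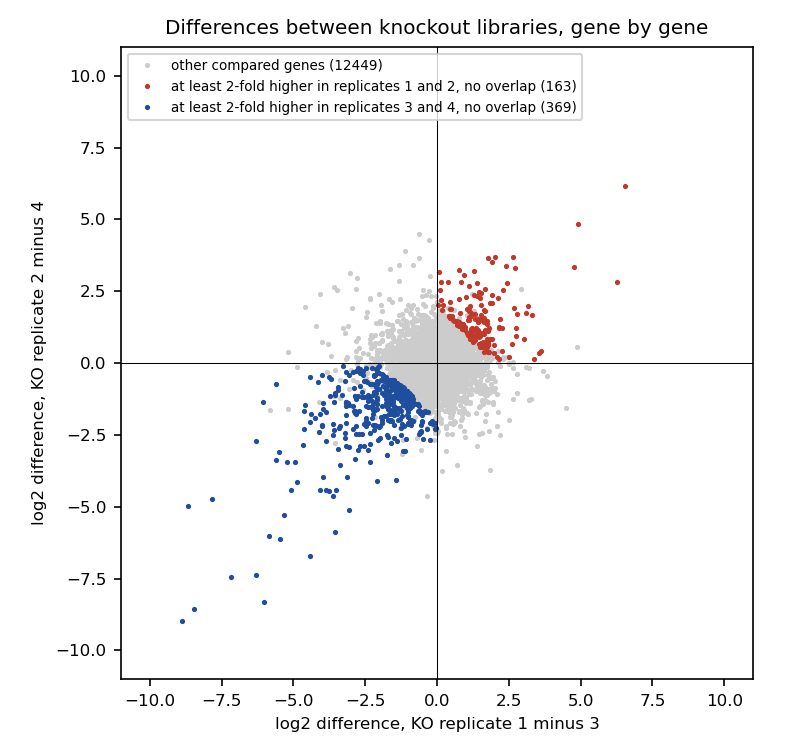
Log2 difference of KO replicate 1 minus 3 (x axis) and of replicate 2 minus 4 (y axis) for the 12981 genes compared, 1 point per gene. Red points are the 163 genes at least 2-fold higher in replicates 1 and 2 without overlap, blue points the 369 genes at least 2-fold higher in replicates 3 and 4, and the blue points reach further from the centre than the red ones.

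The clearest group were genes that were near silent in one pair and expressed in the other. With a limit of 20 normalized counts in both libraries of a pair and of at least 100 in both of the other, 11 genes qualified: POF1B, PRDM9, OCIAD2, RNF150, FEV, NT5C3B, KLRC1, KLRC3, MAP7, COL8A2 and KLRC4. All 11 were near silent in replicates 1 and 2, and 0 genes qualified in the opposite direction. This count depends on the limit of 20, which ZFHX4 missed in replicate 4 only. ZFHX4 was at 1602 and 1636 in replicates 1 and 2, and at 16.3 and 21.6 in replicates 3 and 4. The promoters of 4 of them, from 250 bases before to 50 bases after the transcription start, are printed because these genes went from near silent to clearly expressed between libraries of the same cell line. They are from RefSeq (GRCh38.p14) in the direction of transcription, with each CpG dinucleotide in capitals: OCIAD2 at chr4:48906779-48907078 (minus strand), NT5C3B at chr17:41836183-41836482 (minus strand), POF1B at chrX:85379616-85379915 (minus strand) and PRDM9 at chr5:23507359-23507658 (plus strand).
OCIAD2: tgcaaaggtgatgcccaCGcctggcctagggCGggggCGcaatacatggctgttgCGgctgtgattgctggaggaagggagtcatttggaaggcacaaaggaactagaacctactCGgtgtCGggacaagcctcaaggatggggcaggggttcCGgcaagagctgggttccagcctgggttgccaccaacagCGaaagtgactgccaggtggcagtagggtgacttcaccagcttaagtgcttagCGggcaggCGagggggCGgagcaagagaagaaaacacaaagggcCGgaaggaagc
NT5C3B: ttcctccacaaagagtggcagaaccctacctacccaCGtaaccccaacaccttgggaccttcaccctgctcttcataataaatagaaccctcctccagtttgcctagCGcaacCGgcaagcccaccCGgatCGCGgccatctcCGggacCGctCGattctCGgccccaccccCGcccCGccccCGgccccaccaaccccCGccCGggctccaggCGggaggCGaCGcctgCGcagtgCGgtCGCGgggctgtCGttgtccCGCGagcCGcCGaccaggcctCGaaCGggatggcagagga
POF1B: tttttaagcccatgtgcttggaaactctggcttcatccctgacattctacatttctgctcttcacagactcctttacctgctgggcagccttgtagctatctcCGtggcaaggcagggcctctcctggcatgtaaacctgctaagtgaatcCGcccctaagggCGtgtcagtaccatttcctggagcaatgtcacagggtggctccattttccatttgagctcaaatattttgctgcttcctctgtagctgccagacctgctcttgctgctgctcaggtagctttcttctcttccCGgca
PRDM9: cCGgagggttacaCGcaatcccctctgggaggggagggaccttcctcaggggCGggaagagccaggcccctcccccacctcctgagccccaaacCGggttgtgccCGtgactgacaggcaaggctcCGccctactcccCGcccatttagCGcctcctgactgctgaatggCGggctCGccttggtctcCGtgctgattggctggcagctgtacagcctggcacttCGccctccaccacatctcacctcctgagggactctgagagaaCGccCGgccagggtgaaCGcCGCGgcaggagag

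The number of CpG dinucleotides in these promoters was 12 for OCIAD2, 29 for NT5C3B, 4 for POF1B and 17 for PRDM9. Over the 11 near silent genes it ranged from 0 to 45 with a median of 13, against a median of 14 in all 27305 promoters of the RefSeq table, 26 in the 10528 promoters of compared genes, and 18.5 in the 400 promoters of split genes. A composite element of ETS and IRF factors, spelled as GGAA, 2 bases of any kind and GAAA and searched on both strands, was found in 12 of the 400 promoters of split genes (3%), in 277 of the 10528 of compared genes (2.63%) and in 776 of all 27305 (2.84%). It was found in 0 of the 11 promoters of the near silent genes. A match of these letters is a description and not a measured binding site.

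OCIAD2 and NT5C3B were expressed in the controls and near silent in replicates 1 and 2. OCIAD2 encodes a mitochondrial protein, and its normalized count was 2.13, 0.956, 455 and 339 in KO replicates 1 to 4, with controls between 399 and 588. Replicates 3 and 4 were near or in the control range, and replicates 1 and 2 held 3 reads together. The mean of replicates 3 and 4 was 257 times that of replicates 1 and 2, with an exact Poisson interval of 88 to 1248 for these reads. Intervals of this kind are at 95% and cover counting error only. NT5C3B encodes a nucleotidase that acts on methylated guanosine monophosphate, and its normalized count was 1.07, 15.3, 473 and 434, with controls between 735 and 952. Replicates 3 and 4 were at 53.4% of the control mean and replicates 1 and 2 at 0.964%. CLSTN2, which encodes a calsyntenin of neuronal synapses, followed a similar order at 1.07, 1.91, 43.3 and 308, with controls from 77.3 to 489. LRP6, a co-receptor of Wnt ligands, was at 1.07, 0, 23.02 and 58.0, with controls from 15.3 to 25.4. Of the 22 Wnt receptor and TCF/LEF genes compared, LRP6 was the 1 split gene (4.55%), a share near the 4.1% over all genes.

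POF1B, PRDM9, RNF150 and BCHE were higher in replicates 3 and 4 than in the controls. POF1B encodes an actin-binding protein of epithelia, and its normalized count was 0, 0, 464 and 504 in KO replicates 1 to 4, with controls between 48.3 and 98.9. No read was found in replicates 1 and 2, so that the mean of replicates 3 and 4 was at least 319-fold higher than the limit of 3 reads over that pair. PRDM9 encodes the histone methyltransferase that marks sites of recombination in meiosis, and its normalized count was 0, 0.956, 351 and 732, with controls between 4.83 and 11.3. Replicates 3 and 4 thus lay far above the controls and replicates 1 and 2, which held 1 read, below them. RNF150, a RING finger protein, showed the same order at 1.07, 0, 133 and 322, with controls from 12.9 to 33.9. BCHE, the butyrylcholinesterase of plasma, was at 0 in all controls and at 1.07, 47.8, 834 and 1544 in the knockout libraries. The mean of replicates 3 and 4 was at least 1723-fold above the limit of 3 reads over the controls.

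KITLG and COL4A2 were higher in all knockout libraries and most so in replicates 3 and 4. KITLG encodes stem cell factor, the ligand of the receptor KIT, and its normalized count was 58.6, 31.5, 517 and 503 in KO replicates 1 to 4, with controls between 0 and 4.83. The knockout was higher than the control by a log2 fold change of 5.99 ± 1.00 (SE; adjusted p = 0.0041, limma). COL4A2, a collagen chain of basement membranes, was at 367, 552, 2634 and 1828, with controls between 10.5 and 21.7. Its log2 fold change against the control was 5.95 ± 0.61 (SE; adjusted p = 0.00039, limma). FSTL1, a secreted relative of SPARC, was at 26.6, 29.6, 52.8 and 78.7. SPARC, FSTL1 and COL4A2 were the 3 split genes among the 24 compared of the list of extracellular matrix proteins (12.5%). Over all genes compared the share was 4.1%. All 3 were higher in replicates 3 and 4, as were 369 of the 532 split genes. The median difference of the list was -0.14, against -0.01 over all genes, and the controls of the same numbers had a median of -0.16 for it. BNIP3, a mitochondrial receptor for mitophagy, was at 17.1, 20.1, 204 and 450, with controls between 27.9 and 34.5. CKM, the muscle creatine kinase, was at 6.39, 25.8, 186 and 191, with controls from 7.24 to 16.4. Replicates 3 and 4 lay above the controls for both genes, and replicates 1 and 2 lay below them for BNIP3. BNIP3 and ANKRD37 were the split genes of 30 compared glycolysis and hypoxia genes (6.67%), whose median difference was -0.04.

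The AKR1C and KLR families of neighbouring genes were higher in replicates 3 and 4 in nearly all members. These and the families below were singled out after their values were seen, and since their members are similar in sequence, the division of reads among them is uncertain. Over all genes compared, 2.84% were split toward replicates 3 and 4 and 1.26% toward replicates 1 and 2. All 5 compared AKR1C genes of chromosome 10, which encode aldo-keto reductases of steroid and carbonyl metabolism, were split, with differences between -3.06 and -1.58. AKR1C3 was at 168, 410, 2085 and 2336 in KO replicates 1 to 4, with controls between 45.1 and 275. The controls of the same numbers differed in the same direction, by -0.93 for AKR1C3, and its difference was -2.13 when each knockout library was set against its control. Of the 6 compared KLR genes of the natural killer gene complex on chromosome 12, 5 were split in this direction. KLRC2, which encodes an activating lectin-like receptor of natural killer cells, was at 3.20, 22.9, 191 and 202, with controls between 41.9 and 82.9. KLRK1, another receptor of this kind, was at 107, 66.0, 443 and 432, with controls from 69.8 to 126. Replicates 3 and 4 thus lay above the controls for both, and for KLRC2 replicates 1 and 2 lay below them. Of the 10 compared lymphocyte genes, fixed as a list of markers, 0 were split. Of the 5 compared guanylate-binding protein genes (GBP), which are induced by interferon, 2 were split, GBP2 and GBP5. All 5 had a difference below 0, but for GBP1 and GBP3 this came from KO replicate 1, and replicates 2 and 4 differed by -0.03 and 0.00. Replicate 1 was also far the lowest for GBP4 (2.13, 66.9, 52.8 and 172), where the pairs overlapped, and for GBP5 (3.20, 177, 279 and 454). For GBP4 and GBP5, replicates 1 and 3 differed by -4.10 and -6.06, and replicates 2 and 4 by -1.35 for both. HOXB6, a homeobox gene, was at 26.6, 36.3, 192 and 170, with controls from 33.3 to 68.7, and was the 1 split gene of 5 compared HOXB genes.

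The genes that were higher in replicates 1 and 2 were led by ZFHX4, a zinc finger and homeobox transcription factor of chromosome 8. Its normalized count was 1602 and 1636 in KO replicates 1 and 2, and 16.3 and 21.6 in replicates 3 and 4, with controls between 34.8 and 64.4. The values within each pair were close, replicates 1 and 2 lay far above the controls and replicates 3 and 4 below them. The difference was 6.36 on the log2 scale, the largest in this direction. MFAP4, a glycoprotein of elastic fibers, was at 248, 1186, 8.13 and 117, with controls spread from 7.52 to 114. TRNP1, a nuclear protein known from neural progenitors, was at 245, 216, 36.6 and 20.7, and CDC42BPB, a kinase that acts downstream of the GTPase CDC42, was at 580, 725, 107 and 104. For both, the controls (64.7 to 82.1 and 181 to 254) lay between the pairs. SHANK1, a scaffold protein of synapses, was at 213, 183, 23.02 and 45.3, with controls from 111 to 186, so that replicates 3 and 4 alone lay below the control range.

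A number of these genes were higher than the control in all knockout libraries. CR1, a receptor for complement fragments on myeloid cells, was at 4567, 1200, 371 and 889, with controls between 0 and 2.15. Replicate 1 was the highest, and replicates 2 and 4 were close. SYTL5, a synaptotagmin-like effector of Rab27, was at 175, 968, 50.1 and 75.8, with controls between 0.863 and 7.52, and its log2 fold change against the control was 5.12 ± 0.91 (SE; adjusted p = 0.0055, limma). RETN, the secreted protein resistin, which human myeloid cells produce, was at 1422, 735, 144 and 227, with controls from 23.3 to 172, and replicate 3 lay within that range. GPR174, NPR1 and ATP8A1, which encode a receptor for lysophosphatidylserine, the receptor for atrial natriuretic peptide and a phospholipid flippase, had means in replicates 1 and 2 of 3172%, 1503% and 1511% of the control mean, and all knockout libraries lay above the control range. PPP1R14C, an inhibitor of protein phosphatase 1, lay below the controls (1273 to 2690) in all knockout libraries, at 135, 538, 51.5 and 76.7, with a log2 fold change of -3.79 ± 0.66 (SE; adjusted p = 0.005, limma).

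The split genes were next placed against the control level, with a pair counted as above or below if both of its values lay outside the range of the 4 controls on the same side, and otherwise as reaching their range. Of the 163 genes higher in replicates 1 and 2, the most frequent arrangement was replicates 3 and 4 below the controls with replicates 1 and 2 reaching their range, as for SHANK1 (54 genes, 33.1%). Replicates 1 and 2 lay above the controls with the other pair reaching their range for 26 genes. Of the 369 genes higher in replicates 3 and 4, these replicates lay above the controls with the other pair reaching their range for 113 (30.6%), as for CKM and KLRK1. Replicates 1 and 2 lay below the controls with the other pair reaching their range for 69 (18.7%), as for OCIAD2 and CLSTN2. In the order named, these arrangements held for 7.14%, 5.55%, 7.58% and 4.19% of all genes compared. The rule for split genes itself favours arrangements in which the pairs differ. The pairs lay on opposite sides of the controls for 16 and 28 genes, among them ZFHX4 and POF1B. This was so for 44 (0.339%) and 37 (0.285%) of all genes compared, some of which did not reach the 2-fold limit.

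**Figure D3:**
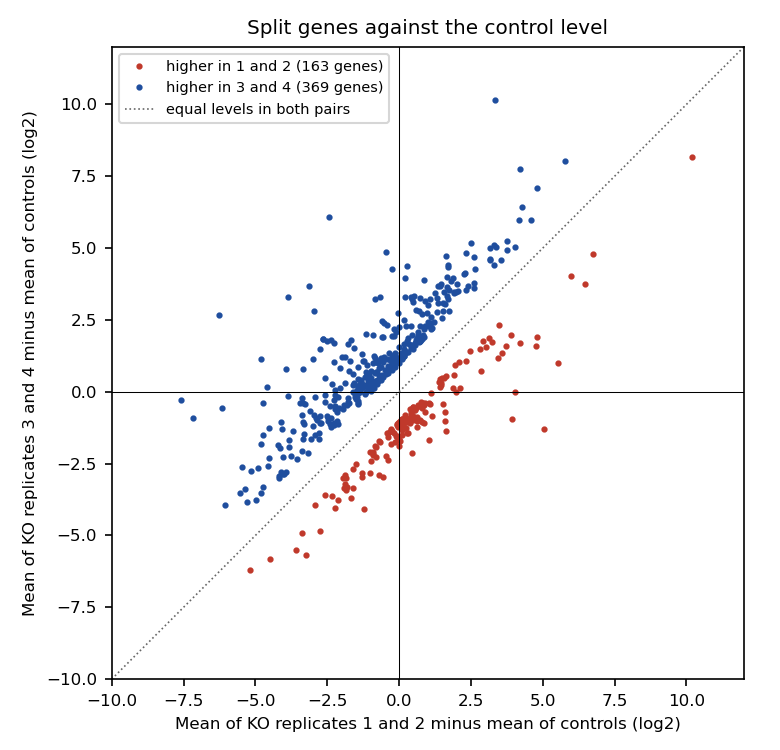
Mean log2 level of KO replicates 1 and 2 (x axis) and of replicates 3 and 4 (y axis), each minus the mean of the 4 controls, for the 532 split genes, 1 point per gene. Red points, genes higher in replicates 1 and 2, lie below the dotted line of equal levels and blue points, genes higher in replicates 3 and 4, above it, and 16 red and 28 blue genes have the pairs on opposite sides of the control range.

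The comparison of all knockout with all control libraries is a different contrast, and was tested. Of 13110 genes with a mean of at least 10 over the 8 libraries, 1429 (10.9%) passed the limits that the study used (2-fold and p under 0.01 before adjustment; limma), with 627 higher (4.78%) and 802 lower (6.12%) in the knockout. Of the 497 split genes that were tested, 150 (30.2%) were called. Of the 12832 tested genes that were also compared between the pairs, 4.89% were called higher and 5.07% lower. Of the 161 tested genes higher in replicates 1 and 2, 16 were called higher and 31 lower in the knockout. Of the 336 tested genes higher in replicates 3 and 4, 52 were called higher and 51 lower. A further 2 and 33 split genes fell under the limit on the mean. The contrasts use the same knockout libraries, so these shares describe the genes and are not independent of the division.

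Lists of genes with known roles in these cells were described by the share of their compared members that were split, which was 4.1% over all genes. Of the 30 lists, 16 had a larger share, 1 had a smaller share and 13 had no split gene. The lists are short, so that 1 gene moves a share by several percent. Of the 26 compared monocyte and macrophage genes, 5 were split (19.2%), 2 toward replicates 1 and 2 and 3 toward replicates 3 and 4, and the median difference was 0.16. CX3CR1 and CCR2, chemokine receptors of monocytes, were both higher in replicates 1 and 2. CX3CR1 was at 1404, 1973, 451 and 730 in KO replicates 1 to 4, with controls between 1395 and 2850, and CCR2 at 555, 725, 248 and 181, with controls from 741 to 4729. Replicates 3 and 4 lay below the controls for both, and replicates 1 and 2 reached the control range for CX3CR1. ITGAM, which encodes the integrin alpha chain CD11b, was at 406, 413, 868 and 1152, above the controls (62.1 to 112) in all knockout libraries. Its log2 fold change against the control was 3.03 ± 0.38 (SE; adjusted p = 0.00098, limma). FCN1, a secreted lectin of monocytes, was at 30.9, 15.3, 96.1 and 112, with controls from 10.3 to 67.6, so that replicates 3 and 4 lay above them.

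Among 36 compared interferon-stimulated genes, IFI44 and HERC5 were split (5.56%), both higher in replicates 3 and 4, and the median difference was -0.04. IFI44 was at 2.13, 23.9, 39.3 and 35.4, with replicate 1 far the lowest. Its difference was -3.68 between replicates 1 and 3 and -0.55 between replicates 2 and 4. HERC5, a ligase for the ubiquitin-like protein ISG15, was at 62.9, 18.2, 138 and 157, with controls between 5.18 and 17.9. Of the 9 IRF family genes, IRF8 was the 1 split gene (11.1%). Among 14 compared chemokine ligands the median difference was -0.61 and 10 were below 0. CCL5 was the 1 split gene of them (7.14%), at 91.6, 572, 852 and 881, with controls from 540 to 1896. Replicate 1 lay apart from the other libraries for CCL5. Of 23 compared AML surface antigens, CD38 and HAVCR2 were split toward replicates 3 and 4 and LILRB4 toward replicates 1 and 2 (13% in all), with a median of -0.09. CD38, an ectoenzyme and therapy target, was at 314, 661, 1529 and 2501, with controls between 293 and 693. NCF1 and IL1B were split in the direction of replicates 3 and 4 and MEFV in the other, among 18 compared NADPH oxidase and inflammasome genes (16.7% in all). NCF1, a subunit of the oxidase with near-identical pseudogenes, was at 2504, 2799, 8663 and 6595, with controls from 1257 to 3794.

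The remaining lists held 1 or 2 split genes or none. SIGLEC6 and CD1C were split in opposite directions among 10 dendritic cell genes (20%), TRAF1 and IL1B among 22 targets of NF-kappaB (9.09%), and ITGA7 and ITGAM among 38 integrin and focal adhesion kinase genes (5.26%). IGF2BP3 was split among 15 stem and progenitor genes (6.67%), BPI among 15 neutrophil granule genes (6.67%), SPRY4 among 25 genes of the ERK pathway (4%), and HIST1H1B among 22 replication-dependent histone genes (4.55%), whose median was -0.43. CCR2 and CX3CR1 were the split genes of 12 chemokine receptors (16.7%). No gene was split of 16 BCL2 family genes, 12 MHC class II genes, 16 MHC class I and peptide loading genes, 13 myeloid growth factor receptors, 18 D cyclins and CDK inhibitors, 25 cholesterol synthesis genes, 28 genes of the integrated stress response, 6 erythroid and megakaryocyte genes, 73 ribosomal protein genes and 1 mitochondrially encoded gene. The same held for 42 S phase and 54 G2M phase genes, with medians of -0.05 and -0.11.

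Another 13 listed genes differed at least 2-fold between the pair means but overlapped. A 2-fold difference of the pair means with overlap requires at least 1 library 2-fold or more beyond the others. That all 13 had such a library thus follows from how they were selected. For 11 of them KO replicate 1 was such a library. NCAM1, an adhesion molecule, had KO replicate 1 as the lowest and replicate 4 as the highest (687, 2389, 1610 and 5332), and its differences between replicates 1 and 3 and between replicates 2 and 4 were both beyond 2-fold, at -1.23 and -1.16. SERPINB10, a serpin of blood cells, was at 146 in KO replicate 1 and between 0.984 and 4.06 in the other knockout libraries. MARCO, a scavenger receptor of macrophages, was at 390 against 42.1 to 55.5, and ITGB5, an integrin chain, was at 25.6 against 283 to 345. The interferon-induced OAS2 and the class II gene HLA-DPB1 had no read in replicate 1. S100A8 (127 against 1154 to 1739) and ALDOC (1716 against 343 to 581) stood apart in replicate 2. Control replicate 2 also had the lowest S100A8 count of the controls (9.49 against 233 to 935). The ALDOC controls differed by number, at 777 and 769 in replicates 1 and 3 and at 4898 and 3632 in replicates 2 and 4. LYZ, the lysozyme of myeloid cells, was at 248600 in replicate 1 and between 13767 and 39385 in the others. The LYZ controls also differed by number, at 12725 and 14757 in replicates 1 and 3 and at 1734 and 2630 in replicates 2 and 4. Among the split genes, LILRB4, SIGLEC6, BPI and HIST1H1B were carried by 1 library of their pair. Others, too, had a small difference in 1 of the comparisons by number. It was 0.40 for MEFV and -0.40 for CD1C between replicates 2 and 4. Between replicates 1 and 3 it was 0.44 for TRAF1 and 0.46 for ITGA7. HIST1H1B was at 7.46, 5.73, 31.1 and 7.87, LILRB4 was at 76.7, 357, 71.8 and 61.0, and SIGLEC6 at 98.0, 769, 56.9 and 79.7.

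Split genes were then placed along the chromosomes with the RefSeq genes of GRCh38.p14, which matched 12863 of the 12981 genes compared. Chromosomes 18 and 5 stood apart. On chromosome 18, the median difference over 168 genes was 0.66, a ratio of 1.58, and 94.6% of the genes were higher in replicates 1 and 2. The pairs did not overlap for 129 of the 168 (76.8%) in this direction and for 0 in the other, compared with 16% and 14.5% of all genes. Relative to the mean of the controls, the chromosome median was 0.16 and 0.14 in KO replicates 1 and 2 and -0.57 in both replicates 3 and 4, whereas the control libraries lay between -0.05 and 0.05. It was 0.71 between replicates 1 and 3 and 0.64 between replicates 2 and 4. The running median of 25 neighbouring genes was between 0.44 and 0.96 in all 144 windows, from one end of the chromosome to the other.

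On chromosome 5 the direction was the opposite and the size smaller. The median difference over 594 genes was -0.27, a ratio of 1.21, and 18.7% of the genes were higher in replicates 1 and 2. The pairs did not overlap for 242 genes (40.7%) that were higher in replicates 3 and 4 and for 17 in the other direction. The chromosome median relative to the controls was 0.12 and 0.11 in KO replicates 1 and 2, and 0.38 and 0.42 in replicates 3 and 4, so that all 4 lay above the control libraries (-0.02 to 0.06). All 570 windows were below 0, between -0.52 and -0.10. Next came chromosome 13, with a median of 0.14 over 221 genes, which was 0.07 without KO replicate 3 and 0.22 without replicate 4. The medians of the other chromosomes lay between -0.05 and 0.05. These values are of RNA, and the copy number of the chromosomes was not measured.

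**Figure D4:**
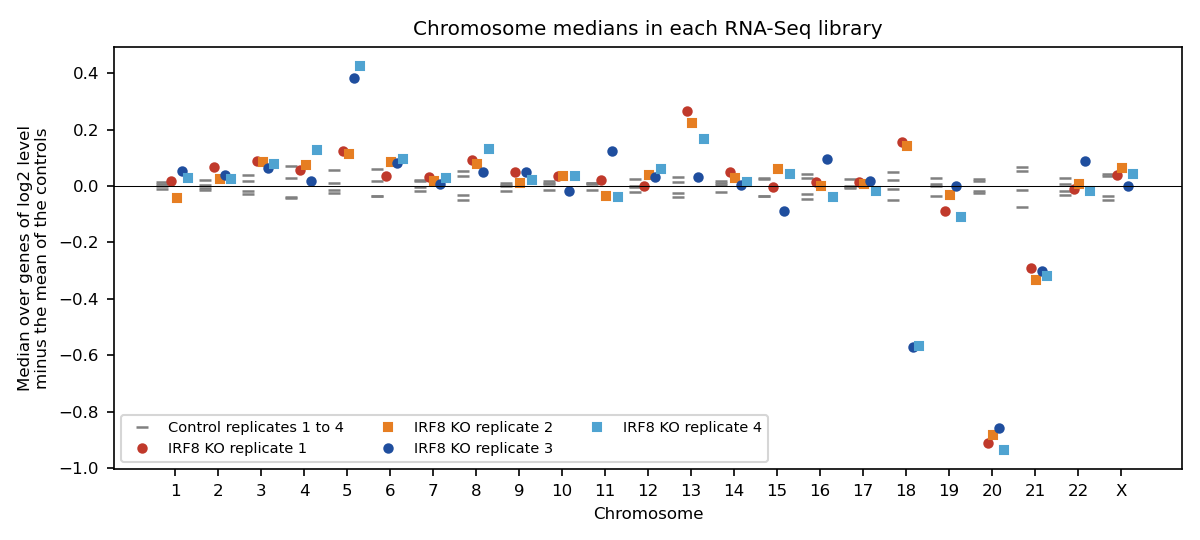
Median over the compared genes of each chromosome (x axis) of the log2 level minus the mean of the 4 controls (y axis), with grey bars for control libraries and points for knockout libraries. On chromosome 18 replicates 3 and 4 lie at -0.57 and replicates 1 and 2 above 0, on chromosome 5 replicates 3 and 4 lie above replicates 1 and 2, and on chromosomes 20 and 21 all 4 knockout libraries lie together below 0.

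**Figure D5:**
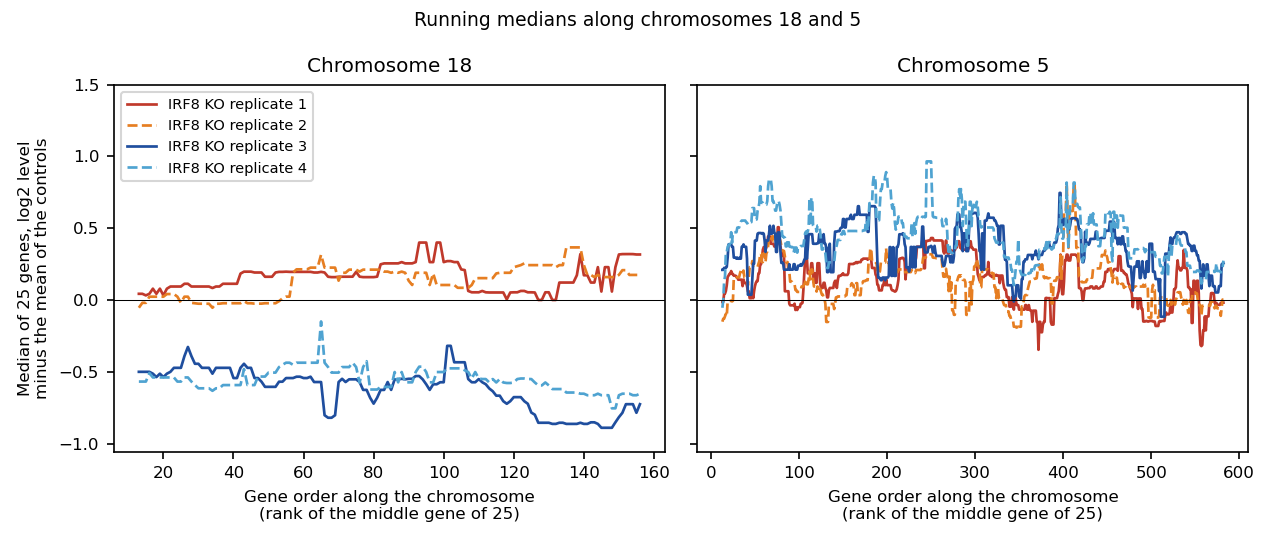
Running median of 25 neighbouring genes of the log2 level minus the mean of the 4 controls (y axis) in gene order (x axis) along chromosomes 18 and 5, 1 line per knockout library. Along chromosome 18 the lines of replicates 1 and 2 stay above those of replicates 3 and 4, and along chromosome 5 the lines lie closer together, with replicates 3 and 4 mostly higher.

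BCL2 lies on chromosome 18 and SPARC on chromosome 5. Among the 168 genes of chromosome 18, BCL2 ranked 63 by its difference, which exceeded the chromosome median by 0.15. Its separate differences were 0.20 between replicates 1 and 3 and 1.42 between replicates 2 and 4, so that the agreement with the chromosome median holds for the mean of the pairs only. SPARC ranked 13 of 594 in its direction on chromosome 5, and its difference was larger than the chromosome median by 1.98 on the log2 scale. A total of 21 genes of chromosome 18 were split (12.5%), all in the direction of replicates 1 and 2. On chromosome 5, 34 genes were split (5.72%), of which 30 were higher in replicates 3 and 4. Over all genes compared the share was 4.1%, which the share of chromosome 5 exceeded by little. Outside both chromosomes, 138 genes were split toward replicates 1 and 2 and 339 toward replicates 3 and 4.

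The split genes of chromosome 18 held a number of highly expressed genes. EPB41L3, a membrane-skeleton protein, was at 18086, 16733, 7570 and 9978, with controls between 5199 and 7647, so that replicates 1 and 2 lay above the controls and replicate 3 within their range. SMCHD1, a chromatin protein of X inactivation, was at 10874, 7914, 3716 and 4866, with controls from 7931 to 9548, so that replicates 3 and 4 lay below the controls. PIGN, an enzyme of GPI anchor synthesis, was at 5798, 4534, 2069 and 2336, with controls from 2719 to 3132, and the pairs lay on opposite sides of them. MALT1, a paracaspase that activates NF-kappaB, was at 1692, 1777, 650 and 820, and PHLPP1, a phosphatase of the kinase AKT, at 2922, 4560, 1169 and 1560. In the test of knockout against control, 3 of the 167 tested genes of the chromosome were called higher (1.8%) and 11 lower (6.59%). The shares were 4.89% and 5.07% of the 12832 compared genes that were tested.

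The split genes of chromosome 5 were mostly of low level. TERT, the catalytic subunit of telomerase, was at 21.3, 16.2, 111 and 92.5 in KO replicates 1 to 4, with controls between 213 and 623. All knockout libraries lay below the controls, replicates 1 and 2 furthest, with a log2 fold change of -3.03 ± 0.68 (SE; adjusted p = 0.016, limma). OTP, a homeobox transcription factor, was at 25.6, 36.3, 103 and 169, above the controls (2.83 to 5.18) in every knockout library. ADAMTS2, a protease that processes procollagens, was at 37.3, 18.2, 123 and 112, with controls from 40.5 to 60.3, and the pairs lay on opposite sides of them. Of the 7 compared genes of the protocadherin beta cluster, 6 were split and all 7 were higher in replicates 3 and 4. Of the 12 compared protocadherin gamma genes, which share exons, 2 were split and 9 were higher in replicates 3 and 4. Over all genes compared, 2.84% were split toward replicates 3 and 4. ATP10B, a phospholipid flippase, went in the opposite direction, at 283, 20.1, 2.71 and 1.97.

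Shorter stretches with medians away from 0 were found on other chromosomes, and most of their genes were not split. Over all genes compared, 1.26% were split toward replicates 1 and 2 and 2.84% toward replicates 3 and 4. A stretch of 50 compared genes of chromosome 20 from RALGAPA2 to TP53INP2 had a median difference of 0.26, and its window with the largest median reached 0.63, while 2 of its genes were split (4%). NOL4L, in this stretch, was at 839, 451, 175 and 191, with every control above these values and the highest at 3077, and CST7, an inhibitor of cathepsins, at 7456, 7192, 2951 and 4094, with controls from 626 to 2893. All knockout libraries were thus below the controls for NOL4L and above them for CST7, and the pairs differed for both. The chromosome as a whole did not differ between the pairs, with a median of 0.02, while it was lower in all 4 knockout libraries than in the controls, by -0.94 to -0.86 on the log2 scale. On chromosome 1, 146 compared genes from NENF to PGBD2 had a median of -0.31, and 4 of them were split in this direction (2.74%), among them KMO, VASH2 and ZNF695. On chromosome 12, the stretch of 40 genes around the KLR genes had a median of -0.19 and held 9 split genes (22.5%).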

How the data were processed

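RNA of MV4-11 cells was sequenced by the authors in 4 control and 4 IRF8 knockout replicates from stranded poly(A) libraries. According to the methods, reads were aligned with RNA-Star 2.7.2b using GENCODE v32 and counted per gene with featureCounts 2.0.1. The build of this alignment was not given in the sources used here. Deposited signal values of the RNA-Seq table are read counts that the authors divided by DESeq2 size factors, 1 per library. No fold changes, standard errors or p-values of the authors were used. The control columns are named as wild type and were matched to the control libraries by replicate number.

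The size factors could be undone, which turned 100% of the values into whole reads (tolerance 0.01 reads). The knockout pairs were compared without a test, with Python 3.11.15 and a pseudocount of 1. A fold change on the log2(value + 1) scale understates that of low genes. Knockout and control were compared with limma 3.58.1 (trended, robust prior; R 4.3.3) on 13110 genes averaging at least 10, with Benjamini-Hochberg adjustment, and called at an unadjusted p below 0.01 and at least 2-fold. On the recovered reads, edgeR 4.0.16 called 1405 genes and DESeq2 1.42.0 called 1609, against 1429 with limma. The scripts were tested on simulated data. Other settings were the pseudocount (0.5 and 5), the filter, the scaling, the replicate number as a block, reads thinned to the smallest knockout library, and each library left out in turn. Values relative to the control of the same number were added after seeing the data.

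Same-numbered knockout and control libraries deviated together from their group means. The correlations over 13110 genes were 0.368, 0.478, 0.452 and 0.502 in replicates 1 to 4, all over the limit of 0.1 used here. Such correlations were not computed between libraries of different numbers. Controls 1 and 3 and controls 2 and 4 were also close, with median absolute log2 differences of 0.074 and 0.152. Pairing by number thus cannot be told apart from a difference between odd and even numbers. As in the study, the test used no block, and the block was run as an alternative. Neither the labels nor the methods say what a number marks.

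The members, the gene lists and the tests were chosen with earlier results of these data known. Named are SPARC, BCL2 and IRF8, the 12 genes with the largest difference in each direction among genes with a mean of at least 100 and no overlap, up to 4 split genes per list, and up to 3 per stretch of 25 or more genes with a median beyond 0.25. The genes of families, near silent genes, genes set apart by 1 library, LYZ, and the chromosome 18 and 5 genes MALT1, PHLPP1 and ATP10B were singled out once their values had been seen. Lists of S phase and G2M phase genes are those of Seurat 5.3.0. Y-linked genes are not named, and a gene that the rule names and a marker are not reported here.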

Additional observations from a re-analysis of the deposited data

Results flagged for a closer look

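In 203 groups of 4 replicates of named genes, 3 libraries stood further from the others than Dixon's limit at 95% for 4 samples, and chance alone flags about 1 in 20 groups. BPI, a bactericidal protein of neutrophil granules, was at 218.46 normalized counts in KO replicate 1 and between 20.3 and 22.9 in the other knockout libraries. LILRB4, an inhibitory receptor of monocytic cells, was at 356.52 in KO replicate 2 and between 61.0 and 76.7 in the others. GBP1, an interferon-induced GTPase, was at 35.166 in KO replicate 1 and between 167 and 177 in the others. BPI and LILRB4 were counted as split through these single libraries.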

How the results depend on the processing

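Without the filter on the mean, 397 genes were split toward KO replicates 1 and 2 and 835 toward replicates 3 and 4, with a mean of at least 100 there were 90 and 121, and quantile normalization gave 266 and 294. The filters change how many genes enter, and for quantile normalization the cause was not tested. Leaving out a knockout replicate gave 218 (without replicate 3) to 550 (without replicate 1) genes in one direction and 507 (without replicate 4) to 815 (without replicate 2) in the other, with a lone library in place of a pair and so a weaker condition on overlap. The median of chromosome 18 stayed between 0.63 and 0.72 and that of chromosome 5 between -0.29 and -0.21 under the 14 settings tried. That of chromosome 20, near 0, changed sign from 0.019 to -0.0028 with reads thinned to the smallest knockout library. Of the values of named genes and chromosomes, 1397 moved by less than the spread between replicates and 46 by more, and CFHR3 went from -1.17 to 0.13 when set against the control of the same number. BCL2, which was not split, was at -0.19 without KO replicate 2.

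In the test of knockout against control, 92 split genes were called with a mean of at least 100, against 150. With the replicate number as a block, 1669 genes were called (717 higher, 952 lower), among them 178 split genes, and CX3CR1 and TRAF1 passed the limits that they otherwise missed. Leaving out 1 library gave 1283 to 1543 called genes and 123 to 149 called split genes. Of the values of named genes in this test, 82 lost their call under a setting, 18 gained one and 1547 kept their side. Genes near 10 normalized counts rest on about as many reads, so that their differences carry a large counting error.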
